A study of Bos taurus with 3 samples.

Results

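CXCL12 and CCL2 are chemokines, small secreted proteins that bind heparan sulfate on cell surfaces and draw in leukocytes along a gradient. CXCL12 (stromal cell-derived factor) is made constantly by stromal cells, acts through the receptor CXCR4, is taken up by the scavenging receptor ACKR3, and is best known for holding blood stem cells in the bone marrow. CCL2 (monocyte chemoattractant protein) acts through CCR2 on monocytes; it is commonly grouped with the inducible, inflammatory chemokines, although cultured stromal cells also make it without a stimulus. Both genes were taken by symbol from the gene lists of the count matrices, where each matched 1 row of 21861 (ENSBTAG00000005077 for CXCL12 and ENSBTAG00000037811 for CCL2), so that 2 of 21861 genes are described here.

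The cells were untreated, wild-type mesenchymal stromal cell (MSC) cultures of 1 healthy Holstein-Frisian cow in its first lactation, started from adipose tissue, bone marrow or peripheral blood and called the adipose, marrow and blood cultures here. The medium was DMEM of low glucose, to which 30% fetal bovine serum had been added. Each tissue gave 1 droplet-based 3' single-cell library, so the 3 libraries share a donor, no tissue has a replicate, and no test between tissues was possible; the tissue cannot be told apart from the culture and the library. All intervals below are 95% intervals and reflect only the error of counting. The kept cells numbered 6088 in the adipose culture, 9281 in marrow and 3192 in blood, with medians of 14391, 9096 and 24884 unique molecular identifiers (UMIs, one per captured RNA molecule) per cell. Between 4 and 10 barcodes were shared by the kept cells of any pair of libraries, and 0 by all 3. In RefSeq's gene order for another assembly, CCL2 lies between CCL11 and ASIC2, with CCL8 next after CCL11, and CXCL12 lies between TMEM72 and ZNF32. Chemokines of 1 family resemble each other and can share reads; the sources used here do not give how such reads were counted.

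The labelled cell type was checked against its markers before levels were compared. Of 16 stromal markers, such as COL1A1, DCN and PDGFRA, 13 reached a level of 50 CPM (UMIs of a gene per 1e+06 UMIs of all genes) in the adipose culture, 11 in marrow and 13 in blood. Most cells fell into clusters led by no other class and are called stromal-like: 6049 in the adipose culture, 8301 in marrow and 3035 in blood. Marrow also held 514 macrophage-like cells and 466 cells of a mixed cluster with macrophage markers beside stromal RNA at 0.5 or more of the library's median share, blood held 157 macrophage-like cells, and the adipose culture held 39 endothelial-like cells. All 16 macrophage markers (among them C1QA, CSF1R and CD163) had UMIs in marrow and in blood. Their summed level was 12222 CPM in the macrophage-like cells of marrow, 2909 CPM in its mixed cluster and 3233 CPM in the macrophage-like cells of blood. In stromal-like cells it was 10.9 CPM in the adipose culture, where ITGAM, C1QB and C1QC had 0 UMIs, 19.9 CPM in marrow and 11.7 CPM in blood. The blood cluster also had 13 stromal markers at 50 CPM or more, so its RNA is not of macrophages alone. Its stromal share was 0.472 of the library's median, just under the limit of 0.5 for a mixed cluster. No doublets were removed, since the caller marked 0 cells in every library.

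CXCL12 was highest in the adipose culture and lowest in the marrow culture. Over all kept cells its level was 255.8 CPM in the adipose culture (interval 252.5 to 259.0), 161.9 CPM in blood (159.2 to 164.5) and 76.6 CPM in marrow (74.9 to 78.3). The 3 intervals do not overlap, but they cover counting error alone, and the share of all genes for which this holds was not computed. The adipose culture exceeded marrow 3.34-fold (3.25 to 3.43), and blood exceeded marrow 2.11-fold (2.05 to 2.17). A gene was counted as apart at a ratio of 2 or more with 50 CPM or more on the higher side. Of all genes at that level, 2.55% were apart with the higher level in the adipose culture than in marrow, and 3.9% with the higher level in blood than in marrow. The adipose culture over blood was 1.58-fold (1.55 to 1.61), which is not apart by this rule; in that pair 1.2% of genes were apart with the higher level in the adipose culture.

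The order held among stromal-like cells alone, where CXCL12 stood at 255.2 CPM in the adipose culture, 164.4 CPM in blood and 81.2 CPM in marrow. The ratios were 3.14 for the adipose culture over marrow (3.06 to 3.23; 2.63% of genes apart in this direction), 2.02 for blood over marrow (1.97 to 2.08; 4.09% of genes apart in this direction) and 1.55 for the adipose culture over blood (1.52 to 1.59; 5.04% of genes apart in either direction). The lower bound for blood over marrow falls under the limit of 2. With every cell thinned to 3000 UMIs, a CXCL12 UMI was found in 48.3% of adipose cells, 34.6% of blood cells and 18.6% of marrow cells. Unthinned shares were 87.0%, 82.9% and 43.5%, at the unequal depths given above.

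Summed over all cells, CCL2 differed less between the tissues than CXCL12. Its level over all kept cells was 203.0 CPM in the adipose culture (200.2 to 205.9), 208.3 CPM in blood (205.3 to 211.3) and 271.8 CPM in marrow (268.5 to 275.1). No pair was apart: the adipose culture over marrow was 0.747 (0.733 to 0.761), the adipose culture over blood 0.975 (0.955 to 0.995) and marrow over blood 1.30 (1.28 to 1.33). In marrow the macrophage-like and mixed clusters made up 10.6% of the cells and 11.4% of all UMIs, yet held 73.1% of the CCL2 UMIs. In blood the macrophage-like cells, which also held stromal RNA, were 4.92% of the cells and had 21.7% of the CCL2 UMIs. These shares depend on the depth at which cells were called, 4414 UMIs in marrow and 7489 in blood. The macrophage-like cells of marrow had a median of 5895 UMIs, and cells of that depth were not kept in blood. With all barcodes of at least 1000 UMIs, CCL2 in the adipose culture over marrow was 0.562 and in marrow over blood 1.5.

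In stromal-like cells alone the order of CCL2 turned, with marrow lowest. The level was 203.7 CPM in the adipose culture (200.8 to 206.6), 171.3 CPM in blood (168.5 to 174.1) and 82.4 CPM in marrow (80.5 to 84.3). The adipose culture exceeded marrow 2.47-fold (2.41 to 2.54), blood exceeded marrow 2.08-fold (2.02 to 2.14), and the adipose culture over blood was 1.19 (1.16 to 1.22). Both chemokines were therefore at their lowest in the stromal-like cells grown from marrow. With stromal-like cells that had any macrophage-marker UMI left out as well, the CCL2 ratio of the adipose culture over marrow was 2.49 and that of marrow over blood 0.488. Thinned to 3000 UMIs, stromal-like cells with a CCL2 UMI were 28.7% in the adipose culture, 21.4% in blood and 12.7% in marrow.

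**Figure D1:**
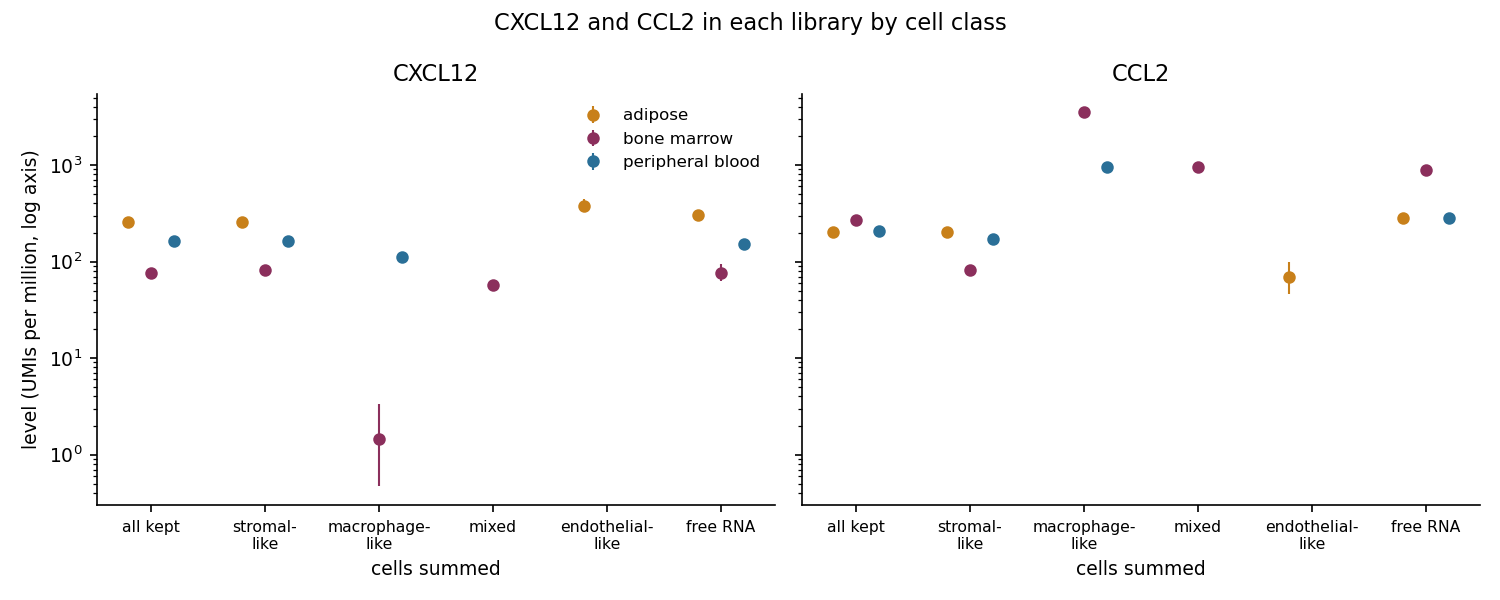
Level of CXCL12 (left) and CCL2 (right) in CPM on a log axis, for cells summed by class in each library and for free RNA; points are summed levels and bars exact 95% Poisson intervals. CXCL12 is highest in the adipose culture and lowest in marrow, in all and in stromal-like cells, while CCL2 in marrow stands at 271.8 CPM over all cells, 82.4 CPM in stromal-like cells and 3532 CPM in macrophage-like cells.

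The macrophage-like cells of marrow separated the 2 genes. CCL2 reached 3532 CPM there (3469 to 3595), the 25th most abundant of the 21861 genes in those cells, and 88.9% of the 514 cells had a CCL2 UMI after thinning. CXCL12 had 5 UMIs in the same cells, or 1.45 CPM (0.470 to 3.38), and 2 of the 514 thinned cells had one. At 0.389% that share serves as the background for CXCL12 detection in this library, against 19.9% of stromal-like cells, with median depths of 5895 and 9106 UMIs. The mixed cluster lay between, with 57.7 CPM of CXCL12 and 955 CPM of CCL2, at a median depth of 14242 UMIs, above that of either class. Whether its cells, or the macrophage-like cells of blood, are doublets of both classes was not tested, and their values may be those of doublets. In the macrophage-like cells of blood CCL2 was at 952 CPM and CXCL12 at 112 CPM, beside the stromal markers named above.

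Endothelial-like cells of the adipose culture, led by SELE, EMCN and SELP, showed the opposite pairing. CXCL12 was at 379 CPM in these 39 cells (324 to 442), and CCL2 at 68.6 CPM (46.3 to 97.9), against 255.2 and 203.7 CPM in the stromal-like cells of the same library. A CCL2 UMI was found in 7.69% of them after thinning, at a median depth of 9294 UMIs. They still had 10 of 16 stromal markers at 50 CPM or more.

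RNA outside cells was measured in barcodes of 10 to 100 UMIs. In it CXCL12 stood at 302.8 CPM in the adipose culture, 77.0 CPM in marrow and 152.0 CPM in blood, close to the stromal-like level of each library. Free CCL2 was at 279.9, 894.5 and 283.3 CPM in the same order, which in marrow is 10.9 times the stromal-like level. The macrophage markers set an upper limit on how much of it the stromal-like cells carried. Their 16 genes had 19.9 CPM in stromal-like cells of marrow and 1896 CPM in free RNA, a share of 1.05%, which bounds the free RNA in those cells if free RNA carries all genes alike. That share carries 9.40 CPM of CCL2, or 11.4% of the stromal-like level, and 0.809 CPM of CXCL12. In blood the same calculation on 15 markers allowed 7.09 CPM of CCL2, or 4.14% of its level. The adipose culture had only 6 endothelial markers to use, with 43 UMIs in free RNA, and the limit there was loose, at 31.8% of the CCL2 level and 27.4% of the CXCL12 level. This calculation was chosen after the levels had been seen.

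CCL2 varied more from cell to cell than CXCL12 in each library. The spread was measured within stromal-like cells thinned to 3000 UMIs, as the variance over the mean of the UMIs per cell, which is near 1 for a gene whose counts vary by sampling alone. For CXCL12 the ratio was 1.38 in the adipose culture, 1.24 in marrow and 1.35 in blood. For CCL2 it was 3.21, 3.66 and 5.66. Genes within 20% of the CCL2 mean had a median ratio of 1.04 in the adipose culture, 1.02 in marrow and 1.04 in blood, and the number of them above CCL2 was 0 of 374, 0 of 664 and 1 of 388. CXCL12 was exceeded by 14 of 296, 13 of 684 and 14 of 403 genes of its own mean.

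Marrow and blood allow the direct comparison, since both genes had nearly the same mean there. In marrow stromal-like cells the means were 0.247 UMIs of CXCL12 and 0.258 UMIs of CCL2 per thinned cell, yet CXCL12 was detected in 19.9% of the cells and CCL2 in 12.7%. The 10% of cells with the most UMIs of a gene held 59.8% of all CXCL12 and 89.7% of all CCL2. In blood, at means of 0.516 and 0.529, the detected shares were 35.6% and 21.4%, and the top 10% held 47.9% and 78.1%. The top 10% of adipose cells held 39.0% of CXCL12 and 63.5% of CCL2, at means of 0.780 and 0.611. In each library CCL2 was thus present in fewer stromal-like cells, at more UMIs per cell that had it.

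Cells with 5 or more CCL2 UMIs after thinning were 2.43% of stromal-like cells in the adipose culture, 1.205% in marrow and 2.80% in blood; for CXCL12 the shares were 0.760%, 0.0723% and 0.198%. The highest thinned count of CCL2 was 25, 14 and 44 UMIs, and that of CXCL12 8, 6 and 6. Before thinning, 1 stromal-like blood cell had 402 CCL2 UMIs. Between clusters lay 1.97%, 2.62% and 3.94% of the CCL2 variance in stromal-like cells. Part of that variance is the sampling of sparse counts, which no grouping can take up. Over all kept cells the share was 47.2% in marrow and 15.9% in blood, where the macrophage-like cells enter.

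**Figure D2:**
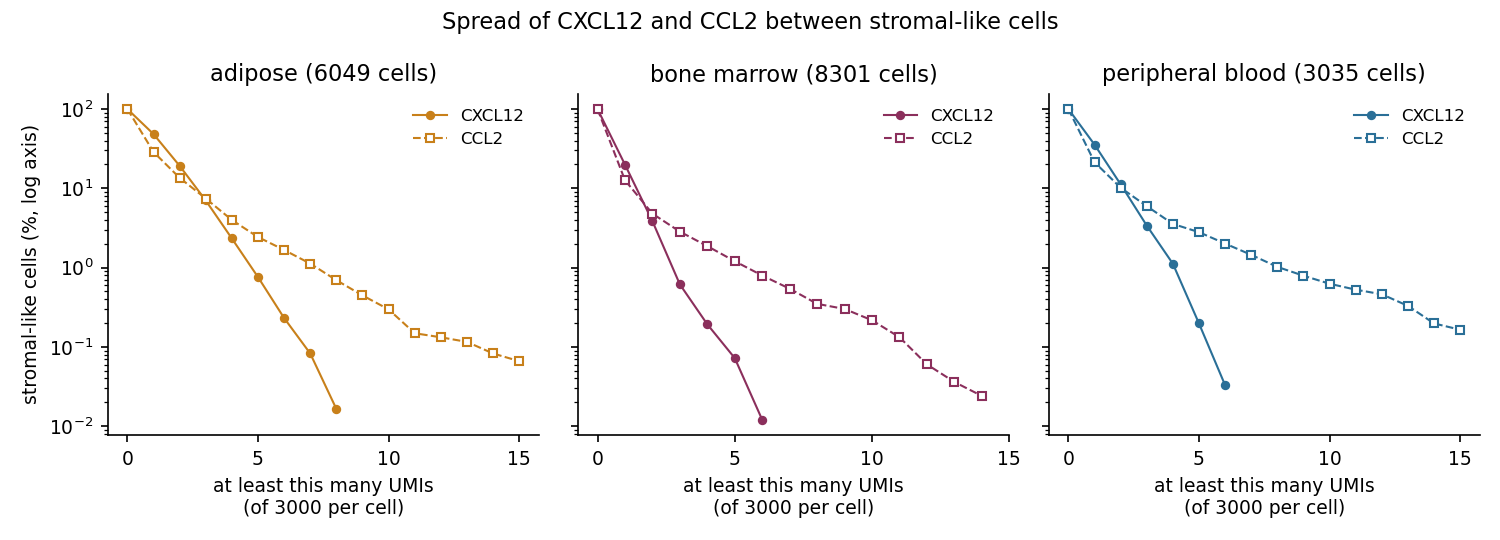
Share of stromal-like cells (percent, log axis) with at least a given number of UMIs of CXCL12 (solid line, circles) or CCL2 (dashed line, squares), each cell thinned to 3000 UMIs, 1 panel per library. The CXCL12 line ends at 6 to 8 UMIs, while CCL2 starts lower at 1 UMI and falls more slowly, past 10 UMIs in all 3 libraries.

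Clusters were made with CXCL12 and CCL2 left out of the genes used, so that the pair could not shape them directly. Among the stromal-like clusters of the adipose culture CXCL12 ran from 203 to 273 CPM. CCL2 ranged from 123 CPM in the cluster led by FAM83D and TOP2A, genes of mitosis and chromosome handling, to 299 CPM in the one led by ASPN and ACTA2, an extracellular matrix protein and the smooth muscle actin of contractile fibroblasts. Finer clustering, at resolution 1 in place of 0.5, widened both ranges. CXCL12 then ran from 178 CPM in 485 cells to 326 CPM in 790 cells, and CCL2 from 96.0 to 398 CPM, the highest in the same 790 cells, which CCL2 and CXCL5 lead.

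In marrow the highest stromal-like level of both genes was in the cluster led by IGFBP5, TINAGL1 and INHBA, with 126 CPM of CXCL12 and 232 CPM of CCL2 in 708 cells. The lowest CCL2 was again in a cluster led by TOP2A and NUSAP1 (42.3 CPM), and the lowest CXCL12 in the cluster led by SERPINF1 and OMD (64.6 CPM), where CCL2 was 107 CPM. Thus the genes did not share an order over the clusters of marrow.

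Blood had the widest range of CXCL12. It was 308 CPM (297 to 320) in 291 cells led by an unnamed gene, CA4, OLFML2B and INHBA, and 112 CPM in the cluster led by ANKRD1 and FST. CCL2 was highest in the same 291 cells, at 392 CPM (380 to 405), and lowest in the same ANKRD1 and FST cluster, at 44.9 CPM (41.7 to 48.3). The cluster led by another unnamed gene, ASPN, SST and IL6 held 28.2% of the library's CCL2 UMIs, at 260 CPM. A cluster led by CDKN2D and TOP2A was low in both, with 113 CPM of CXCL12 and 60.6 CPM of CCL2. CXCL12 itself stands among the 5 leading genes of the 291-cell cluster although it was not used to make it. The shared order depended on the resolution. At resolution 1, CXCL12 was highest in 251 cells (320 CPM; CCL2 397 CPM), while CCL2 was highest among stromal-like cells in 192 others led by CA4, IL6 and SST (423 CPM; CXCL12 259 CPM). The lowest CXCL12 was then in the cluster led by ASPN and CCN3, at 84.5 CPM, where CCL2 was 177 CPM, and the lowest CCL2 in one led by ANKRD1 and FST, at 30.1 CPM.

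**Figure D3:**
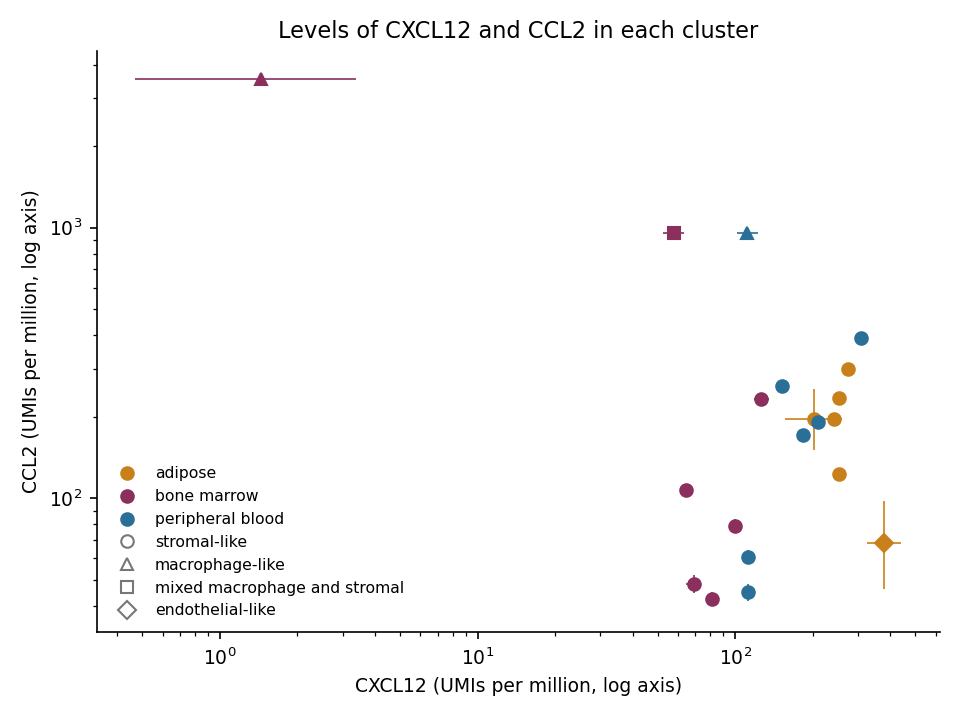
CXCL12 (horizontal) against CCL2 (vertical) in CPM, both axes log, 1 point per cluster, coloured by library and shaped by cell class; bars are exact 95% Poisson intervals. Stromal-like clusters (circles) span 64.6 to 308 CPM of CXCL12 and 42.3 to 392 CPM of CCL2, and the macrophage-like marrow cluster stands alone at 1.45 and 3532 CPM.

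Cycle phase, called from lists of S and G2M genes on thinned cells, went with CCL2 in every library. In stromal-like cells CCL2 was 302 CPM in G1 and 170 CPM in G2M in the adipose culture, a ratio of 1.78 (1.72 to 1.84). The ratio was 1.66 in marrow (112 against 67.2 CPM; 1.58 to 1.75) and 1.79 in blood (234 against 131 CPM; 1.72 to 1.85). S-phase cells lay between, at 251, 101 and 216 CPM. For CXCL12 the ratio of G1 over G2M was 1.13 in the adipose culture (278 against 246 CPM), 0.823 in marrow (68.5 against 83.2 CPM) and 0.892 in blood (147 against 165 CPM). Its highest phase in marrow and blood was S, at 93.9 and 196 CPM. Phase accounted for at most 1.28% of the variance of either gene among stromal-like cells of a library. That variance includes the sampling of sparse counts, which no grouping can take up. A small share can therefore go with the differences in level above. Phase shares differed between libraries: G2M was called in 68.1% of adipose, 56.9% of marrow and 53.9% of blood cells. In G1 cells alone, taken from all kept cells, CXCL12 in the adipose culture was 4.76 times the level in marrow and 1.96 times that in blood. These G1 cells numbered 2623 in marrow, of which 2014 were stromal-like, so the cell class enters these ratios. In G1 stromal-like cells CXCL12 was at the 278, 68.5 and 147 CPM given above for the adipose, marrow and blood cultures.

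Co-detection was counted on thinned cells. In the adipose culture 905 cells had both genes, 2038 CXCL12 alone, 836 CCL2 alone and 2309 neither, an odds ratio of 1.23. Blood had 304, 800, 458 and 1630 such cells, an odds ratio of 1.35. Marrow had 280, 1450, 1551 and 6000, an odds ratio of 0.747, the only one of the 3 below 1. Adipose and blood cells with CCL2 therefore more often had CXCL12 (52.0% against 46.9% of cells without CCL2, and 39.9% against 32.9%), and marrow cells less often (15.3% against 19.5%).

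Within stromal-like cells the marrow odds ratio turned to 1.11, from 225 cells with both genes, 1428 with CXCL12 alone, 826 with CCL2 alone and 5822 with neither. There 21.4% of cells with CCL2 had CXCL12 (interval 19.0 to 24.0), against 19.7% of cells without it (18.8 to 20.6), and these intervals overlap. The stromal-like odds ratio was 1.23 in the adipose culture and 1.63 in blood. In blood 44.7% of cells with CCL2 (40.8 to 48.6) had CXCL12, against 33.2% of those without (31.3 to 35.1). Across stromal-like cells, Pearson's r of log(1 + thinned UMIs) of the pair was 0.0590 in the adipose culture (6049 cells), 0.0233 in marrow (8301 cells) and 0.120 in blood (3035 cells). These r values describe cells of 1 library each, which share its depth and free RNA, and are too low in counts this sparse to be a finding.

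Both genes were high in the same 291 blood cells, so the odds ratio was also taken within clusters. Inside the 6 stromal-like clusters of blood the odds ratio ran from 0.978 to 2.11 and was above 1 in 5. In the adipose culture it ran from 1.05 to 1.51 over the 4 stromal-like clusters of over 1000 cells. In marrow it was above 1 in 3 of 5 stromal-like clusters, from 0.891 to 1.31.

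**Figure D4:**
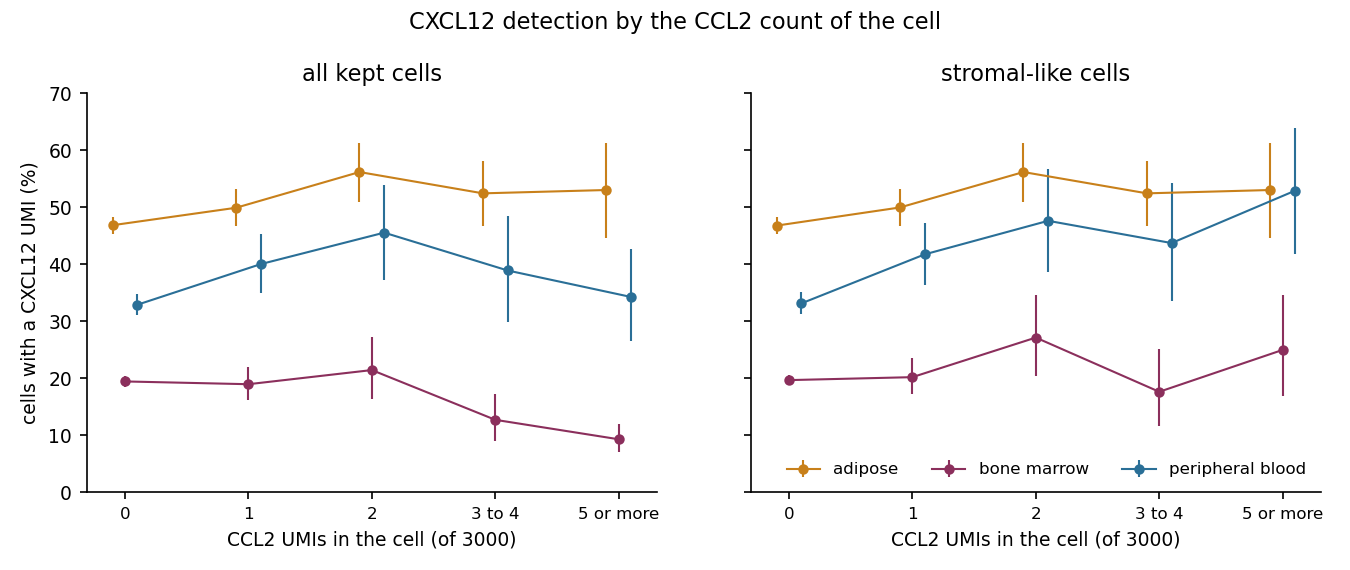
Share of cells with a CXCL12 UMI (percent) by the number of CCL2 UMIs in the same cell, both after thinning to 3000 UMIs, for all kept cells (left) and stromal-like cells (right); bars are exact 95% Clopper-Pearson intervals. In marrow the share goes from 19.5% at 0 CCL2 UMIs to 9.31% at 5 or more over all cells, and from 19.7% to 25% in stromal-like cells.

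Stromal-like cells with much CCL2 were looked at for what else they held. There were 147 such cells with 5 or more thinned CCL2 UMIs in the adipose culture, 100 in marrow and 85 in blood. A macrophage-marker UMI was found in 3.40% of them in the adipose culture (1.11 to 7.76), 5% in marrow (1.64 to 11.3) and 5.88% in blood (1.94 to 13.2), against 3.15%, 5.64% and 2.72% of stromal-like cells with 0 CCL2 UMIs. In each library the first interval holds the second value. The summed level of the markers in marrow, however, was 18.4 CPM at 0 CCL2 UMIs, 29.9 CPM at 1 to 2, 36.2 CPM at 3 to 4 and 22.7 CPM at 5 or more. In blood it was 10.9, 16.4, 7.06 and 13.3 CPM, and in the adipose culture between 10.7 and 11.5 CPM. The part of this in the CCL2 levels was not tested. Their median depth was 14106, 8167 and 21586 UMIs, against 14362, 9135 and 25229.5 UMIs. By cluster, 39.5% of the adipose cells were in the ASPN and ACTA2 cluster, which has 22.9% of stromal-like cells. In marrow 43% were in the SERPINF1 and OMD cluster, which has 27.0% of stromal-like cells, and 30% in the IGFBP5 and INHBA cluster, which has 8.53%. In blood 45.9% were in the ASPN, SST and IL6 cluster, which has 26.4%, and 23.5% in the cluster of 291 cells, which has 9.59%.

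The genes most like CCL2 were ranked by the mean over the libraries of r across stromal-like cells, among 2357 named genes of at least 50 CPM in each library. They were CSF1, the growth factor of monocytes and macrophages (mean r 0.158), CXCL5, a chemokine that attracts neutrophils (0.129), INHBA, a subunit of activin (0.125), the transcription factor gene CEBPD (0.0994) and FGF7, a growth factor for epithelia (0.0903). The largest single value was 0.228, for CXCL5 in blood, so all of them are weak. CXCL12 was the 14th. The lowest were HMGB2, CENPF and CKS2, which serve chromosome condensation and cell division, from -0.102 to -0.122. Of the 33 ranked genes of the G2M list, 32 had a negative r with CCL2 in all 3 libraries, beside 17.2% of all ranked genes; the phase calls above were made from this list, so it repeats the pattern of the phases.

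Summed levels are given as a description, with no test, since cells of 1 library are not replicates and a single cell can hold many UMIs. CSF1, INHBA, CXCL5 and CEBPD were picked by their r with CCL2 in these same cells. That their ratios lie above 1 repeats this ranking and is not a second result. CSF1 was at 2534 CPM in adipose cells with 5 or more CCL2 UMIs and 1352 CPM in those with 0, a ratio of 1.87 (1.82 to 1.93). The CSF1 ratio was 2.04 in marrow (1054 against 516 CPM) and 2.01 in blood (566 against 281 CPM). INHBA had ratios of 2.27, 2.15 and 2.08 in the adipose culture, marrow and blood. For these 2 genes the ratios lay close together, although CSF1 itself was 4.86-fold higher in the adipose culture than in blood over all cells.

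CXCL5 and CEBPD differed more between libraries. From 0 to 5 or more CCL2 UMIs, CXCL5 was 3.01 times as high in marrow and 2.89 times in blood, but 1.44 times in the adipose culture. CEBPD was 3.93, 2.23 and 1.33 times as high in the same order. IL6, an inflammatory cytokine added to these genes after the cluster leaders were seen, went from 47.3 to 509 CPM in blood, a ratio of 10.8 (10.0 to 11.5). In marrow it went from 287 to 716 CPM, and in the adipose culture from 5.66 to 13.0 CPM. The share of blood cells with an IL6 UMI was 27.1% against 8.30%, a smaller step than that of the level. CXCL12 was 1.29, 1.52 and 1.73 times as high in the adipose culture, marrow and blood.

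**Figure D5:**
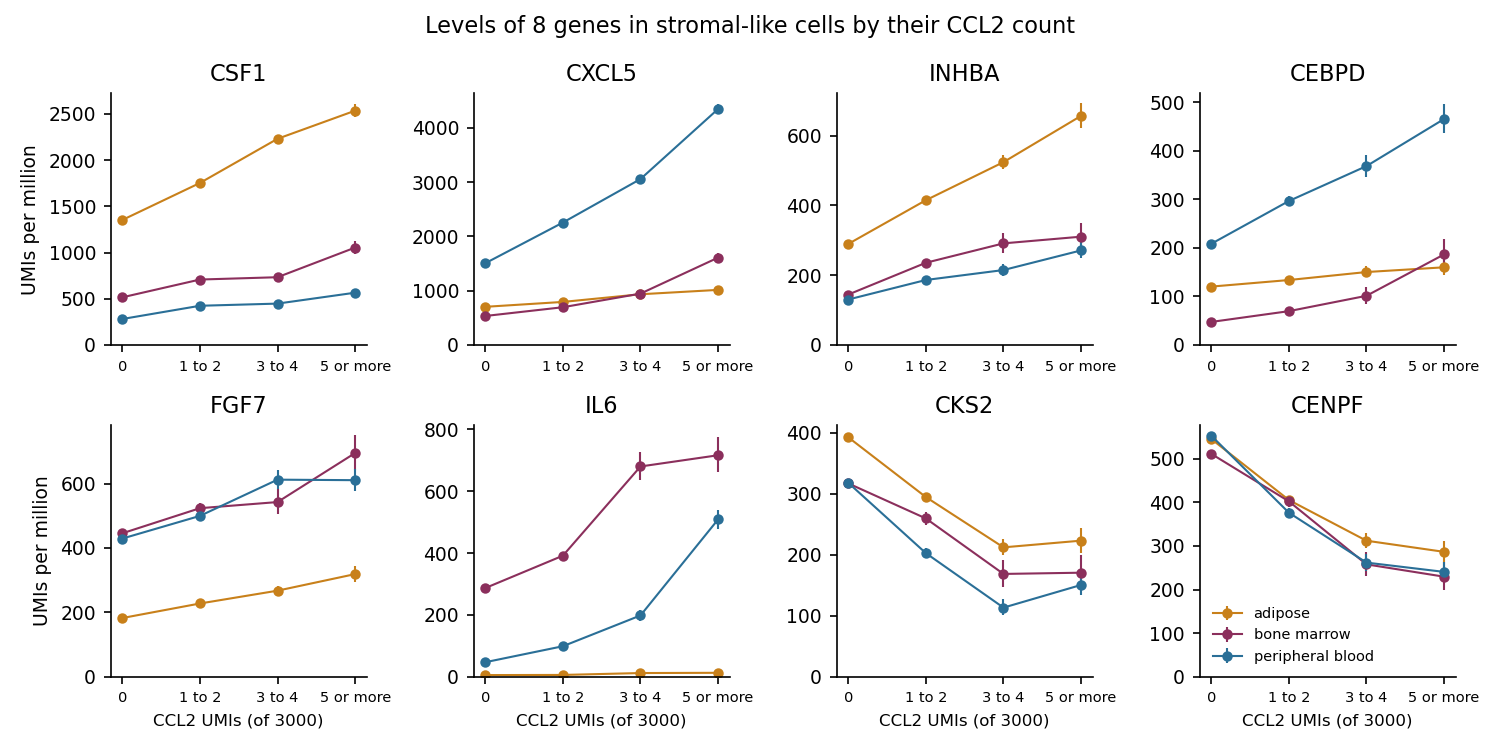
Level of 8 genes (CPM, linear axes from 0) in stromal-like cells grouped by their CCL2 UMIs after thinning to 3000, coloured by library; bars are exact 95% Poisson intervals over the summed UMIs of a group of cells. All but IL6 were picked by their high or low r with CCL2 in these same cells, so their direction repeats that ranking. CSF1 and INHBA are 1.87 to 2.27 times as high at 5 or more CCL2 UMIs as at 0 in all 3 libraries, IL6 goes from 47.3 to 509 CPM in blood, and CENPF goes from between 511 and 553 CPM to between 230 and 287 CPM.

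The highest r values of genes with CXCL12 were lower still. Sampling of sparse counts also lowers r, and its part in this difference was not tested. The 5 with the highest mean r were ESM1, a secreted proteoglycan best known from endothelium (0.101), S100A4, a calcium-binding protein of motile fibroblasts (0.0786), PTMA, a chromatin-associated protein (0.0778), TFPI2, a protease inhibitor of the matrix (0.0741), and IGFBP6, which binds insulin-like growth factor (0.0700). PTMA had an r of -0.00502 in the adipose culture, and IGFBP6 ranked 424th in marrow, so neither was near CXCL12 in every library. CCL2 was the 6th. The lowest were COL1A1 (-0.114), TPM1 (-0.116) and TMSB4X (-0.125), which encode fibrillar collagen, tropomyosin and an actin-binding peptide. Their r was below 0 in all 3 libraries apart from COL1A1 in the adipose culture, at 0.0258. No positive r with CXCL12 passed 0.162 in any library.

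The receptors were sparse in all 3 cultures, and none of the 8 listed receptor genes reached 50 CPM. CXCR4, the receptor of CXCL12, was at 0.137 CPM in the adipose culture, 13.8 CPM in marrow and 8.43 CPM in blood. It followed the macrophage markers: 116 CPM in the macrophage-like and mixed cells of marrow and 159 CPM in those of blood, against 0.685 and 0.930 CPM in the stromal-like cells. ACKR3, the scavenging receptor of CXCL12, was at 7.74, 2.70 and 16.8 CPM. CCR2, the receptor of CCL2, and CCR4 had 0 UMIs in all kept cells, which allows a share of cells with a UMI of up to 0.0493% in the adipose culture, 0.0323% in marrow and 0.0940% in blood. The other listed receptors ACKR1, ACKR2, ACKR4 and CCRL2 were all below 1 CPM.

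Of 38 other chemokine genes listed, 30 were found by symbol. At least 50 CPM in the higher library was reached by 4 of them for the adipose culture and marrow, 5 for the adipose culture and blood, and 6 for marrow and blood. Those apart numbered 0 higher in the adipose culture and 2 higher in marrow (4.35% of all genes were apart that way). For the adipose culture and blood they were 0 higher in the adipose culture and 4 higher in blood (3.83%). For marrow and blood they were 1 higher in marrow (3.86%) and 3 higher in blood (3.9%). The median log2 ratios were -1.62, -2.61 and -0.29, beside 0.08, 0.08 and 0.00 over all genes measured. They rest on only 7, 7 and 9 chemokine genes and on all kept cells, macrophage-like cells included. The pair higher in marrow than in the adipose culture was CXCL8 and CCL5. In stromal-like cells CXCL8 was instead lower in marrow, and CCL5 was at 22.7 CPM in marrow against 0.318 CPM.

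CXCL5 was the most abundant of these, at 739 CPM in the adipose culture, 697 CPM in marrow and 1785 CPM in blood. The neutrophil attractants GRO1 (24.8, 40.0 and 152 CPM) and CXCL2 (4.77, 32.0 and 81.7 CPM) were highest in blood. CXCL8 was at 26.6, 81.7 and 100.2 CPM over all cells but at 26.6, 16.5 and 49.0 CPM in stromal-like cells. Like CCL2, it was lowest in the stromal-like cells of marrow and not in that library as a whole. CCL5, which attracts T cells and monocytes, was at 1.51, 67.5 and 22.1 CPM, and 417 CPM in the macrophage-like and mixed cells of marrow. The chemokine genes CCL8 and CCL11, near CCL2 in the gene order, were low: CCL8 at 0.0211, 5.37 and 4.97 CPM, and CCL11 at 0.369, 0.0101 and 0.415 CPM.

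Other lists tied to these chemokines gave the following counts over all kept cells. They stand beside 2.55% of all genes apart and higher in the adipose culture than in marrow, 4.35% higher in marrow, 1.2% higher in the adipose culture than in blood, and 3.83% higher in blood. Of 15 haematopoietic niche factors found, 3 reached 50 CPM in the pair of the adipose culture and marrow; CSF1 was 2.92-fold higher in the adipose culture (1503 against 515 CPM), and SPP1 (osteopontin) and NES (nestin) were higher in marrow, 23.2-fold and 3.15-fold. SPP1 was at 3733 CPM in the macrophage-like and mixed cells of marrow. Of 14 peptidases that can trim chemokines, 5 reached that level, with MMP9 (111 against 0.527 CPM) and CTSB (215 against 80.7 CPM) higher in marrow; in stromal-like cells these were at 4.65 against 0.530 CPM and 67.5 against 80.6 CPM. Of 22 heparan sulfate genes, 3 reached it, and SDC1 (3.26-fold) and GPC1 (2.53-fold), the cores of surface proteoglycans, were higher in marrow. Of 29 NF-kB members and inducible genes, 5 reached it and 4 were higher in marrow: IL6 (46.4-fold), NFKBIA (3.13-fold), CXCL8 (3.07-fold) and IER3 (2.89-fold). In stromal-like cells IL6 was at 308 CPM in marrow and 6.24 CPM in the adipose culture. CCL2, also known as inducible by NF-kB, was at 82.4 and 203.7 CPM there, and CXCL8 at 16.5 and 26.6 CPM. NFKBIA was at 23.6 and 16.4 CPM, and IER3 at 705 and 235 CPM. NF-kB activity was not measured, and its part in these levels was not tested.

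Neither the S-phase nor the G2M list had a member apart in any pair of libraries, of 39 and 52 genes found. Only members reaching 50 CPM could be apart: 18 and 36 in each pair with the adipose culture, 16 and 34 for marrow and blood. Over all genes, 1.2% to 4.35% were apart per direction. The median log2 ratios of the adipose culture over marrow were 0.28 and 0.27, and over blood 0.34 and 0.22, beside 0.08 over all genes. For marrow over blood they were 0.01 and -0.05, beside 0.00. Of the interferon-induced list 13 genes were found, and 2 were higher in marrow and 3 in blood than in the adipose culture, with 0 higher in the adipose culture; beside the shares of 4.35% and 3.83% over all genes, 2 and 4 members of this list had reached 50 CPM. IFI6 was higher 13.2-fold in marrow and 13.6-fold in blood, PSMB8 7.17-fold and 8.24-fold, and IFIT1 2.99-fold in blood. In stromal-like cells IFI6 was at 7.12, 38.4 and 38.6 CPM in the adipose, marrow and blood cultures. Of the 14 genes found from a list tied to hypoxia, 6 reached 50 CPM in the adipose and marrow pair. Of these, 1 was higher in the adipose culture (ADM, 3.45-fold), beside 2.55% of all genes. In marrow 2 were higher (EPAS1, 8.28-fold, and HIF1A, 2.49-fold), beside 4.35%. Of 10 glucocorticoid-induced genes found, 5 reached 50 CPM in the adipose and marrow pair and 4 in the adipose and blood pair. Among them 1 was higher in marrow (SGK1, 2.74-fold) and 1 in blood (DUSP1, 2.52-fold) than in the adipose culture. The shares over all genes were 4.35% and 3.83%. Of 16 TGF-beta and activin genes, 9 reached 50 CPM in the adipose and marrow pair; 3 were higher in the adipose culture (2.55% of all genes) and 2 in marrow (4.35%), with FST 14.9-fold, TGFBI 3.09-fold and INHBA 2.26-fold higher in the adipose culture, and SMAD7 2.24-fold and TGFB1 2.10-fold higher in marrow.

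Over all kept cells CCL2 also differed between groups of cells of different depth, without a steady rise or fall. Stromal-like cells were not taken alone here. In 4 groups of marrow cells of equal size, from the shallowest to the deepest, CCL2 was 638, 205, 166 and 238 CPM, and in blood 395, 207, 145 and 179 CPM. Median depth was 5895 UMIs in the macrophage-like cells of marrow and 14242 in its mixed cluster. CXCL12 ranged from 71.3 to 85.0 CPM over these groups in marrow and from 141 to 183 CPM in blood. In the adipose culture, with no macrophage-like cells, CCL2 was 178, 245, 242 and 164 CPM.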

How the data were processed

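Single-cell 3' v3.1 libraries were counted by the authors with Cell Ranger, version 4 per the file headers; the submitters' processing notes name version 6.1.1 and the build ARS-UCD1.2. The deposited values are raw UMI counts per gene and barcode, not reduced to cells; no coordinates are given here.

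Barcodes reaching the 99th percentile of the top 3000, divided by 10, were called cells (4438.5, 4414 and 7489 UMIs in adipose tissue, bone marrow and blood). Limits of 500 genes and 20% mitochondrial UMIs removed 0 cells. Scrublet marked 0 cells and so did not work. Each library was clustered alone in scanpy 1.11.5 (2000 variable genes, 30 components, 15 neighbours, Leiden resolution 0.5, seed 1). A cluster took another class's name with at least 3 of its markers among its 50 top genes, and was mixed with at least 0.5 of the library's median stromal share.

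CPM are UMIs summed over cells. Intervals are exact Poisson, Clopper-Pearson or binomial for a ratio. A 0 allows 3 counts. Lists' medians use genes of 10 CPM or more summed over a pair. Named genes are both chemokines, all receptors, list members apart by the 2-fold rule (at most 6 a list), the 5 highest and 3 lowest genes by r, and leading genes of clusters; any others were picked with their values in view. The chemokines, lists and tests were chosen with earlier results of these data known. Calculations were tested on simulated data. Alternatives covered cell threshold, thinning, scaling (TMM, edgeR 4.0.16), phase, clustering and cell class.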

Additional observations from a re-analysis of the deposited data

Results flagged for a closer look

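Results listed here went one way in 1 tissue and the other way in another; with 1 library per tissue the differences were not tested. On the log2 scale, CXCL12 in G1 over G2M stromal-like cells was 0.177 in the adipose culture, -0.281 in marrow and -0.164 in blood, so that G1 cells had the higher level in the adipose culture alone.

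The odds ratio of finding CXCL12 and CCL2 in the same cell, over all kept cells, was 1.23 in the adipose culture, 0.747 in marrow and 1.35 in blood. Within the stromal-like cells of marrow it was 1.11. The marrow cells outside that class are the macrophage-like and mixed clusters, where CXCL12 was detected in 0.389% and 16.1% of thinned cells and CCL2 in 88.9% and 69.3%.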

How the results depend on the processing

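The CXCL12 ratio of the adipose culture over marrow (3.34) was 3.14 in stromal-like cells, 4.76 in G1 cells and 3.22 with TMM factors. That of the adipose culture over blood (1.58) was 1.96 in G1 cells, 1.51 with TMM factors and 1.63 as a mean of CPM per cell. Marrow over blood (0.473) was 0.494 in stromal-like cells and 0.412 in G1 cells. The CCL2 ratio of the adipose culture over marrow (0.747) was 0.562 with all barcodes of at least 1000 UMIs, 0.498 in G1 cells, 0.719 with TMM factors and 0.629 as a mean per cell, but 2.47 in stromal-like cells. CCL2 in the adipose culture over blood (0.975) was 0.841, 1.19 (stromal-like), 0.933 (TMM) and 0.827 (mean per cell). CCL2 in marrow over blood (1.30) was 1.5 with the lower threshold, 1.98 in G1 cells and 0.481 in stromal-like cells. The G1 setting takes all kept cells, macrophage-like cells included. In G1 stromal-like cells CCL2 was 302 CPM in the adipose culture, 112 CPM in marrow and 234 CPM in blood, with marrow lowest. In stromal-like cells with 0 macrophage-marker UMIs, an alternative chosen after seeing the data, the CXCL12 ratios were 3.12, 1.53 and 0.492, and the CCL2 ratios 2.49, 1.21 and 0.488. The co-detection odds ratio of marrow (0.747) was 0.859 thinned to 6000 UMIs and 0.883 in the middle range of depths, and turned to 1.11 in stromal-like cells; that of blood was 1.63 there. With finer clusters (resolution 1), the highest CCL2 level of an adipose cluster was 398 in place of 299 CPM; with both genes used in the clustering, the highest CXCL12 level of a blood cluster was 269 in place of 308 CPM. The causes of these shifts were not tested. CXCL12 kept its order of tissues under each of these settings, and CCL2 did not. No paired analysis was possible because each tissue has 1 library, and no replicate could be left out. Cells thinned to 3000 UMIs carry under 1 UMI of either gene on average in stromal-like cells, so undetected does not mean absent.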
